A study of Homo sapiens with 6 samples.

Results

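The transcripts of 10 Notch genes were followed in NCI-N87 gastric cancer cells with and without SCAMP1 knockdown. They are the receptors NOTCH1, NOTCH2 and NOTCH3, the ligands JAG1, JAG2, DLL1 and DLL4, the fringe enzyme LFNG, and the targets HES1 and HEY1. The genes were chosen by symbol among the protein-coding genes of the expression table, so they are 10 of 19951 protein-coding genes and of 58735 genes in all, and all 10 were found. NCI-N87 is an established cell line from a human gastric carcinoma. Cells of both groups were infected with lentivirus and selected with puromycin (2 μg/ml) as stable populations, not single clones. The shNC group carried the empty vector pSIH-H1-puro and is the group that the study calls shCtrl. The shScamp1 group carried 1 shRNA against SCAMP1, the one named shS1#1 by the study, so effects of this hairpin on other transcripts cannot be told apart from those of SCAMP1 loss. Each group had 3 libraries, labelled as biological replicates. The study does not count its RNA-seq among the experiments that were repeated independently, so the p-values measure the spread between these libraries, which may be technical.

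Notch receptors sit in the plasma membrane and are activated by ligands of the Jagged and Delta-like families on neighbouring cells. Ligand binding, and the pull of ligand endocytosis, opens the receptor to cleavage by ADAM proteases and then by γ-secretase, which frees the intracellular domain. That domain enters the nucleus, joins the DNA-binding protein RBPJ and a Mastermind coactivator, and switches on targets such as the HES and HEY repressors. Fringe enzymes add sugars to the receptors and change which ligands they answer. In the stomach epithelium the pathway is known for its part in maintaining progenitor cells. SCAMP1 is a membrane protein of secretory and endocytic vesicles.

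Expression was given as FPKM, the fragments on a gene scaled to gene length and library size, 1 value per gene and library. Reads on genes, recovered from these values, numbered 15064905 to 15988700 in shNC and 14311769 to 14667628 in shScamp1 libraries. The library sizes implied by the FPKM were 1.03 to 1.04 times these reads in shNC and 0.957 to 0.999 times in shScamp1. The deposited values thus hold a scaling between libraries that the processing notes do not describe, and it enters every fold change. SCAMP1 (ENSG00000085365) stood at 12.6, 12.1 and 11.5 FPKM in shNC and at 1.70, 1.37 and 1.99 FPKM in shScamp1 replicates 1, 2 and 3. It was 86.0% lower on average, with a log2 fold change of -2.78 ± 0.14 (SE, limma, adjusted p = 0.000248, n = 3 against 3). The libraries therefore carried the labels' difference in the targeted gene. The 8 epithelial markers were all at or above 0.5 FPKM, whereas 1 of 8 endothelial, 1 of 8 fibroblast and 2 of 8 leukocyte markers were. The summed epithelial markers ran from 4364 to 4584 FPKM in shNC and from 7964 to 8679 FPKM in shScamp1, a sum made up mostly of 3 keratins (KRT8, KRT18 and KRT19). Of the 8 markers 6 were called higher in limma, whereas EPCAM, an epithelial adhesion molecule, was at 153 ± 3.35 and 148 ± 6.45 FPKM (SD, n = 3, adjusted p = 0.670) and ELF3 also was not called. In bulk RNA the number of cells of a kind and the RNA per cell cannot be told apart. The library of shScamp1 replicate 2 stood apart, with 9.21% of its reads on mitochondrial genes against 6.09% to 6.78% in the other 5. Its median absolute log2 deviation from the other libraries of its group was 0.299, against 0.0842 to 0.208 in the rest. For the tested members results are given with and without it.

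Of the Notch genes, NOTCH1 alone passed the test, and its call was lost in 8 of 18 alternative settings. It was lower in all 3 shScamp1 libraries, by 29.1% on average, while NOTCH2, NOTCH3, the Jagged ligands, LFNG and HES1 did not pass the test, and HEY1, DLL1 and DLL4 were too low to be tested. A gene was tested when its mean over the 6 libraries was at least 0.5 FPKM, and called changed when its adjusted p in limma was under 0.05 (Benjamini-Hochberg over the 15556 genes tested). By this rule 7 of the 10 genes were tested and 1 was called. That share, 14.3%, lay near the 14.0% of all tested genes that were called, which include non-coding ones. When protein-coding genes alone were fitted, 1 of the 7 (14.3%) was called, against 22.8% of all 11529. Genes called lower made up 5.17% of all tested genes. Differential expression, which also asks for a log2 fold change beyond 1 in size, was met by 0 of the 7 and by 3.16% of all tested genes. At an unadjusted p under 0.05 in limma, 2 of the 7 passed (NOTCH1 and JAG2), and so did 30.7% of all tested genes. In voom on recovered reads NOTCH1 was the only member called, with an adjusted p of 0.0154, and 17.7% of all tested genes were called. The median log2 fold change was -0.12 over the 7 genes and -0.02 over all tested genes, with 6 of the 7 lower and 1 higher. In 2 of the 7 genes, or 28.6%, the groups did not overlap, against 41.4% of all tested genes.

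**Figure D1:**
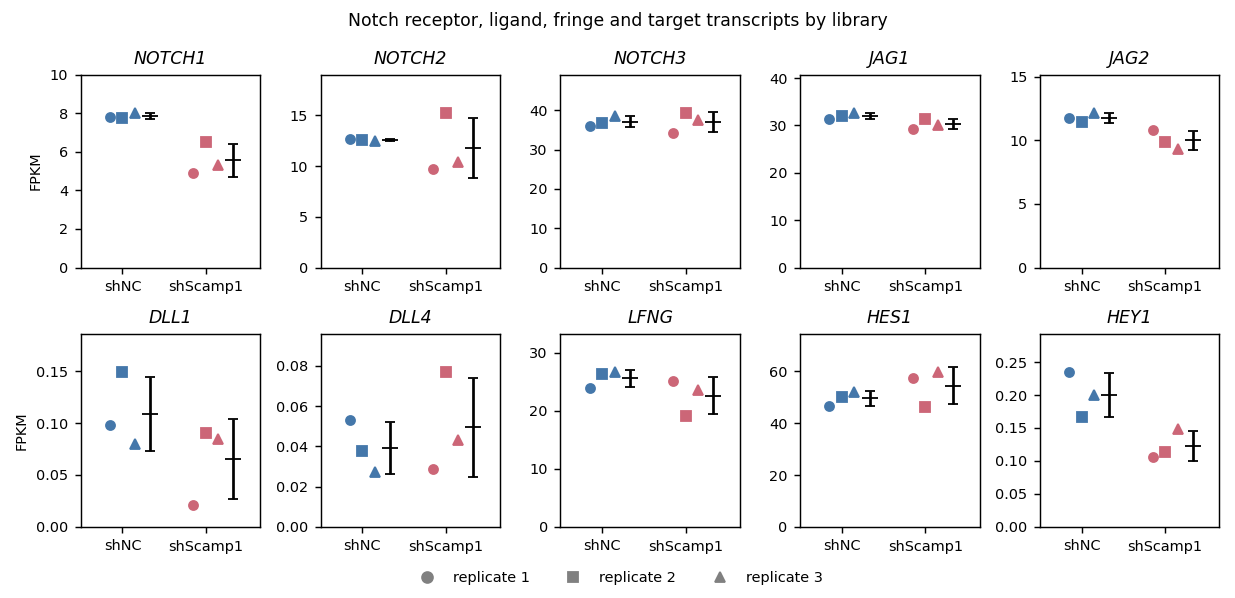
FPKM of the 10 Notch genes in each library (3 shNC and 3 shScamp1, symbol shapes for replicates 1 to 3), with each group's mean and SD as a bar, on axes that start at 0. NOTCH1 ran from 7.76 to 8.02 FPKM in shNC and from 4.88 to 6.53 FPKM in shScamp1 with no overlap, whereas NOTCH3, JAG1 and HES1 overlapped.

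The levels of the members spanned a wide range in control cells. Per length, the order in shNC was HES1, NOTCH3, JAG1, LFNG, NOTCH2, JAG2, NOTCH1, HEY1, DLL1 and DLL4, from a mean of 49.5 FPKM to 0.0393 FPKM. No neighbours in that order had overlapping ranges in shNC, although the last 3 rest on 12 reads or fewer per library. In shScamp1 the ranges of NOTCH2 and JAG2 overlapped, and so did those of DLL1 and DLL4. For scale, the median tested gene was at 4.12 FPKM in shNC, and all 7 tested members were above it. The most abundant members by these values were thus a target, a receptor and a ligand, and Delta-like ligand transcripts were close to the limit of detection.

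Among the receptors NOTCH1 alone was called with all libraries included, and the fold changes of the receptors were not tested against each other. NOTCH1 (ENSG00000148400; chromosome 9, 136494433 to 136545786, reverse strand, 34 exons in its longest transcript, GENCODE 29 on GRCh38) stood at 7.82, 7.76 and 8.02 FPKM in shNC and at 4.88, 6.53 and 5.31 FPKM in shScamp1. All 3 knockdown libraries lay below all 3 controls, and replicate 2 was the highest of them. The means were 7.86 ± 0.135 and 5.57 ± 0.853 FPKM (SD, n = 3), and the log2 fold change was -0.50 ± 0.11 (SE, 95% interval -0.78 to -0.22, limma adjusted p = 0.0362). The gene held 740 to 1341 reads per library. An exact permutation test of a single gene cannot go below p = 0.1 with 3 libraries against 3. Another gene, AL592301.1, lies antisense within NOTCH1 at 0.238 to 0.764 FPKM, and their exons share 0 bases.

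The call for NOTCH1 was close to the threshold. Its log2 fold change ran from -0.62 to -0.41 over 18 alternative settings, all of them lower in shScamp1, and the adjusted p stayed under 0.05 in 10 of these. Leaving out shScamp1 replicate 2 gave -0.62 with an adjusted p of 0.00160. Leaving out shNC replicate 1, 2 or 3 gave adjusted p-values of 0.124, 0.123 and 0.132, and leaving out shScamp1 replicate 1 or 3 gave 0.0680 and 0.114. Only the first of these 6 omissions kept the call. The adjusted p was 0.0705 without a filter on low values, 0.0572 without a mean-variance trend and 0.0806 with the replicate number as a block.

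**Figure D2:**
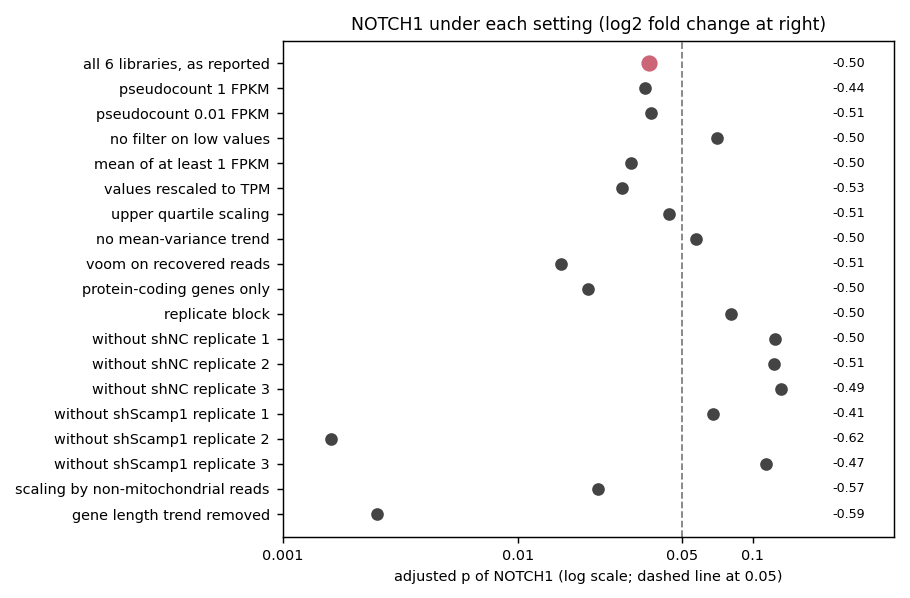
Adjusted p of NOTCH1 in limma (horizontal log axis, dashed line at 0.05) under each setting, with the log2 fold change of shScamp1 over shNC at the right. All log2 fold changes are below 0 (-0.62 to -0.41), and 10 of the 18 alternatives lie under the threshold.

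NOTCH2 (ENSG00000134250; chromosome 1, 119911553 to 120069626, reverse strand, 34 exons) read 12.7, 12.6 and 12.5 FPKM in shNC and 9.74, 15.2 and 10.4 FPKM in shScamp1. Replicates 1 and 3 of the knockdown lay below every control, and replicate 2 above every control. The log2 fold change over all 6 libraries was -0.12 ± 0.17 (SE, 95% interval -0.52 to 0.28, limma adjusted p = 0.665). Without shScamp1 replicate 2 it was -0.32, with an adjusted p of 0.00684. Partial copies of NOTCH2 on chromosome 1 share sequence with it, and of these NOTCH2NLA was listed, at a mean of 0.125 FPKM in shNC and 0.0914 FPKM in shScamp1. Reads could have been split between these genes, so the NOTCH2 level is uncertain to that extent.

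NOTCH3 (ENSG00000074181; chromosome 19, 15159038 to 15200981, reverse strand, 33 exons), the most abundant receptor transcript of these cells, read 35.9, 36.8 and 38.7 FPKM in shNC. It read 34.3, 39.3 and 37.5 FPKM in shScamp1, with replicate 1 below every control, replicate 2 above every control and replicate 3 among them. The log2 fold change was -0.01 ± 0.07 (SE, 95% interval -0.19 to 0.17, limma adjusted p = 0.968). The fourth receptor gene, NOTCH4, is known mainly from endothelium and was at 0.0322 ± 0.00715 FPKM in shNC and 0.0144 ± 0.00705 FPKM in shScamp1 (SD, n = 3), below the level tested.

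As a share of the summed FPKM of NOTCH1, NOTCH2 and NOTCH3, NOTCH1 was lower in every knockdown library than in any control. It made up 13.9%, 13.6% and 13.5% in shNC and 9.98%, 10.7% and 9.97% in shScamp1. The shares did not overlap, at 13.7% ± 0.176 and 10.2% ± 0.416 (SD, n = 3; exact permutation test, two-sided, p = 0.1, the smallest that 3 against 3 can give). In shScamp1 replicate 2, the knockdown library with the highest NOTCH1 level, the NOTCH1 share still lay below every control. In that library NOTCH2 made up 24.9% of the sum, against 19.9% and 19.6% in shScamp1 replicates 1 and 3. The share is built from the same NOTCH1 values as the test above and is not separate evidence. NOTCH3 made up 64.5% ± 0.841 and 68.3% ± 3.41 (SD, n = 3), with overlap. The NOTCH2 share was 21.9% ± 0.690 in shNC and 21.5% ± 3.00 in shScamp1 (SD, n = 3), also with overlap.

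The Jagged ligands were well expressed and the Delta-like ligands were near 0. JAG1 (ENSG00000101384; chromosome 20, 10637684 to 10673999, reverse strand, 26 exons) read 31.4, 31.9 and 32.6 FPKM in shNC and 29.3, 31.4 and 30.2 FPKM in shScamp1. Replicate 2 of the knockdown reached the lowest control, and the other 2 lay below it. The log2 fold change was -0.08 ± 0.06 (SE, 95% interval -0.22 to 0.07, limma adjusted p = 0.428). JAG2 (ENSG00000184916; chromosome 14, 105140981 to 105168824, reverse strand, 26 exons) read 11.7, 11.4 and 12.1 FPKM in shNC and 10.8, 9.87 and 9.35 FPKM in shScamp1. Its groups did not overlap, and its mean was 14.8% lower in shScamp1. The log2 fold change was -0.23 ± 0.08 (SE, 95% interval -0.42 to -0.05) and did not pass the limma test, with an unadjusted p of 0.0220 and a Benjamini-Hochberg adjusted p of 0.0988 in limma. When values were rebuilt from reads and scaled by reads outside mitochondrial genes, JAG2 came to -0.30 with an adjusted p of 0.0456 in limma. This step also removed the scaling between libraries held in the deposited FPKM, and the part of each was not tested. The same step took the share of called genes that were higher in shScamp1 from 63.0% to 46.3% of all those called. JAG2 shared 469 exon bases with AL512356.1 on its own strand, which was listed at 0 in all libraries. JAG1 shared 79 exon bases on the other strand with an antisense gene, AL050403.2, at 0 to 0.171 FPKM.

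JAG1 made up 73.1% ± 0.480 of the summed JAG1 and JAG2 FPKM in shNC and 75.2% ± 1.85 in shScamp1 (SD, n = 3). These shares overlapped (exact permutation test, two-sided, p = 0.2), and a test of 3 against 3 cannot go below 0.1, so a shift between the Jagged ligands was not shown by this test.

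DLL1 (ENSG00000198719; chromosome 6, 170282206 to 170306565), a Delta-like ligand, had 5, 8 and 4 reads in shNC and 1, 4 and 4 reads in shScamp1, or 0.0977, 0.149 and 0.0803 FPKM and 0.0212, 0.0906 and 0.0847 FPKM. The summed reads of 17 and 9 gave a ratio of shScamp1 over shNC, after scaling to library size, of 0.592 (exact 95% interval for counting error only, 0.232 to 1.40). DLL4 (ENSG00000128917; chromosome 15, 40929333 to 40939073), a ligand best known from endothelium, had 4, 3 and 2 reads in shNC and 2, 5 and 3 reads in shScamp1. Its ratio was 1.24 (exact 95% interval 0.453 to 3.45). A difference in either Delta-like ligand was not detectable at this depth. DLL1 lies opposite FAM120B, at 7.95 to 9.49 FPKM, with 0 shared exon bases. DLL3, which is known to act against Notch within the same cell, was at a mean of 0.0235 FPKM in shNC and 0.00872 FPKM in shScamp1.

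LFNG (ENSG00000106003; chromosome 7, 2512529 to 2529177, forward strand, 8 exons) encodes lunatic fringe, which extends O-fucose on Notch receptors. It read 23.9, 26.4 and 26.6 FPKM in shNC and 25.1, 19.1 and 23.6 FPKM in shScamp1. The groups overlapped and replicate 2 was the lowest library. The log2 fold change was -0.19 ± 0.12 (SE, 95% interval -0.47 to 0.09, limma adjusted p = 0.322), and -0.07 without replicate 2 (adjusted p = 0.438).

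**Figure D3:**
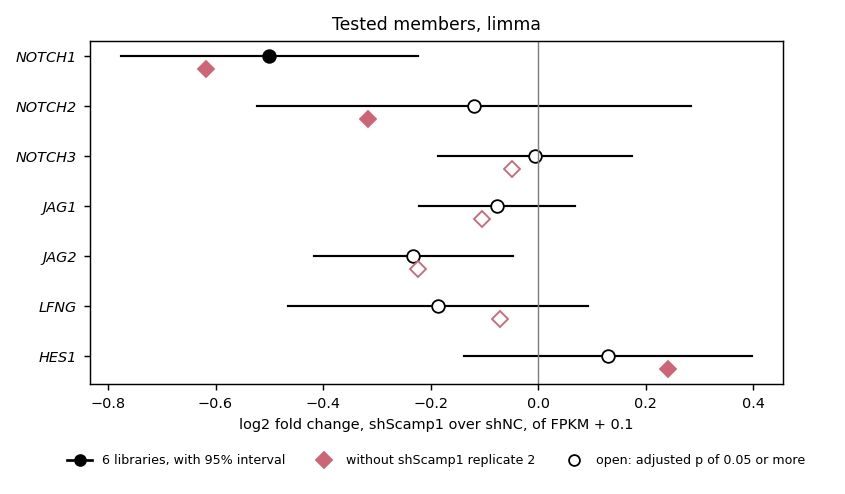
Log2 fold change of shScamp1 over shNC, on FPKM + 0.1, for the 7 tested Notch genes, as black circles with 95% intervals for all 6 libraries and red diamonds without shScamp1 replicate 2. Filled symbols have an adjusted p under 0.05, which holds for NOTCH1 (-0.50) with all libraries and for NOTCH1 (-0.62), NOTCH2 (-0.32) and HES1 (0.24) without replicate 2.

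The nuclear end of the pathway is read in its target promoters. RBPJ recognises the core TGGGAA, and the 250 bases before each RefSeq transcription start (GRCh38.p14) were searched for TGGGAA on both strands. It occurred in 20.8% of 35116 promoters and in 2 of the 8 members with an entry, HES1 and LFNG. The longer GTGGGAA, which contains it, occurred in 5.43% of promoters, in 1 of the 8 members (HES1), and in 5 of the 8 HES and HEY genes with an entry. DLL1 and HEY1 had no entry. To show promoters with and without the core, the windows of HES1 and of 3 other targets are printed 5′ to 3′ on the gene's own strand with TGGGAA in capitals: HES1 at chr3:194135898-194136147 (forward strand), HES4 at chr1:1000098-1000347 (reverse strand), HES2 at chr1:6419920-6420169 (reverse strand) and NRARP at chr9:137302272-137302521 (reverse strand).
HES1: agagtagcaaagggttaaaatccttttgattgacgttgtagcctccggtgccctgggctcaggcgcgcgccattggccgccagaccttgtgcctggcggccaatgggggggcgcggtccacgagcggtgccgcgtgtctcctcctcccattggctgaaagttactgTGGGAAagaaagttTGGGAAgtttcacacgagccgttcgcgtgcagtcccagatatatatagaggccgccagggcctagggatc
HES4: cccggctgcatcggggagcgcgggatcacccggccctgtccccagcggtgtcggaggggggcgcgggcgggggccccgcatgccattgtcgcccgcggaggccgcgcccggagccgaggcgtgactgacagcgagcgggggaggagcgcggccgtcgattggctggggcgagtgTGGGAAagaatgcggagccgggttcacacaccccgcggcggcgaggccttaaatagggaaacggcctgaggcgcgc
HES2: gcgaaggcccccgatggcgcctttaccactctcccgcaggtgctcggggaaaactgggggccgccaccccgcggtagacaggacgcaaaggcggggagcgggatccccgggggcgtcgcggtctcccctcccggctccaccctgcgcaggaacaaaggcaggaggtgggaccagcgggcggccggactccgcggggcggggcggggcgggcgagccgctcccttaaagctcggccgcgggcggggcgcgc
NRARP: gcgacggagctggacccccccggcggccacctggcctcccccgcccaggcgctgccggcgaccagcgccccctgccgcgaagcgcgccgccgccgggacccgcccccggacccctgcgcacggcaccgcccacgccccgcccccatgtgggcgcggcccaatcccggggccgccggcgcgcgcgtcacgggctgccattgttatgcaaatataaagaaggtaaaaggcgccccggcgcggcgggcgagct
HES1 holds the core at -84 to -79 and at -70 to -65 from its start, the first of them preceded by G, and HES4 holds it at -76 to -71. HES2 and NRARP hold 0 matches in this window. These 4 were chosen after their values were seen. Over all tested pathway genes with an entry, 2 of the 13 with the core were called, FURIN and BMI1, both higher. Of the 43 without it, 12 were called, 5 higher and 7 lower. Of all tested genes 14.0% were called, and 22.8% in the fit of protein-coding genes alone. A difference in calls with and without the core was not tested. A match is a run of letters and not a measured site, and these libraries hold no binding data.

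The target HES1 was the most abundant member and was not called, with a higher mean in shScamp1. HES1 (ENSG00000114315; chromosome 3, 194136145 to 194138732, forward strand, 4 exons) encodes a basic helix-loop-helix repressor and is the best known direct target of Notch. It read 46.6, 50.1 and 51.9 FPKM in shNC and 57.4, 46.4 and 59.6 FPKM in shScamp1. Replicates 1 and 3 lay above every control, and replicate 2 below every control. The log2 fold change was 0.13 ± 0.11 (SE, 95% interval -0.14 to 0.40, limma adjusted p = 0.470), and 0.24 without replicate 2 (adjusted p = 0.0255). HEY1 (ENSG00000164683; chromosome 8, 79764010 to 79767863), a related repressor, had 12, 9 and 10 reads in shNC and 5, 5 and 7 reads in shScamp1, or 0.234, 0.167 and 0.200 FPKM and 0.106, 0.113 and 0.148 FPKM. Its groups did not overlap (exact permutation test, two-sided, p = 0.1, the smallest possible). The ratio of scaled reads was 0.613 (exact 95% interval 0.318 to 1.14), so a difference was not detectable at this depth.

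Without shScamp1 replicate 2, limma called 3 of the 7 tested members, and 27.8% of all tested genes. NOTCH1 and NOTCH2 were lower and HES1 higher in that fit, and JAG2 (adjusted p = 0.0753), JAG1 (0.0850), NOTCH3 (0.549) and LFNG (0.438) did not pass. Leaving out any one of the other 5 libraries gave 0 members called in place of 1. The count of called genes over all tested genes moved as well, from 2177 to 4330 without shScamp1 replicate 2. It was 808, 831 and 858 without an shNC library, 1814 without shScamp1 replicate 1 and 1030 without shScamp1 replicate 3.

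The knockdown libraries differed from each other with gene length. Against the mean of the other shScamp1 libraries, the log2 deviation of replicate 2 had a Spearman correlation of 0.22 with gene length across 15556 genes, which share the library and are not independent. The same correlation was -0.28 for shScamp1 replicate 1 and -0.17 for replicate 3, each against a mean that holds replicate 2. Replicates 1 and 3 set directly against each other gave -0.18, and the 3 pairs of shNC libraries gave -0.0022 to 0.0486. For replicate 2 the median deviation was -0.12 for the 4287 genes under 2000 bases and 0.30 for the 1341 genes of at least 10000 bases. Among the members, the deviation was 0.59 for NOTCH2 (16807 bases), 0.35 for NOTCH1 (10377 bases) and 0.13 for NOTCH3 (9394 bases). It was 0.08 for JAG1 (9298 bases), -0.03 for JAG2 (6397 bases), -0.35 for LFNG (3418 bases) and -0.33 for HES1 (2062 bases). The long receptor genes were thus read higher, and the short LFNG and HES1 lower, in this library than in the others of its group. With the trend with gene length removed from each library, NOTCH1 came to -0.59 (limma adjusted p = 0.00252), HES1 to 0.23 (adjusted p = 0.0491) and NOTCH2 to -0.27 (adjusted p = 0.0560). The part of RNA quality in these deviations was not tested.

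**Figure D4:**
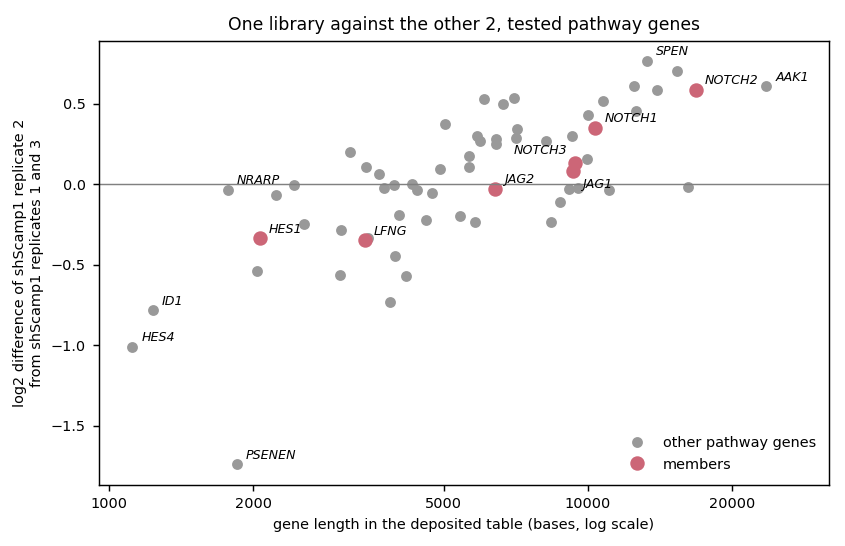
Log2 difference of shScamp1 replicate 2 from the mean of shScamp1 replicates 1 and 3 (vertical axis) against gene length in bases (horizontal log axis) for tested pathway genes, with the members in red. NOTCH2 (0.59) and NOTCH1 (0.35) lie high among the long genes, and HES1 (-0.33), HES4 (-1.01) and PSENEN (-1.74) low among the short ones.

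Genes whose pattern over the 6 libraries was most like that of NOTCH1 were FBXO6, ENAH and IPO5. After each gene was centred on its own mean, their root mean square log2 difference from NOTCH1 was 0.0281, 0.0409 and 0.0430, the smallest of 11528 protein-coding genes compared. FBXO6 encodes a substrate receptor of a ubiquitin ligase, ENAH an actin regulator and IPO5 a nuclear import receptor. In each of them shScamp1 replicate 2 was the highest knockdown library, as in NOTCH1. The genes were picked for likeness over these same libraries, so this shared order follows from the choice. In limma FBXO6 was not called (adjusted p = 0.0961), whereas ENAH (0.0323) and IPO5 (0.0421) were. For IPO5 the values were 33.2, 32.8 and 32.2 FPKM in shNC and 21.5, 28.0 and 23.5 FPKM in shScamp1.

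Around the members, genes of the wider pathway were called in both directions. Lists of 82 pathway genes by role, members included, held 63 tested genes, of which 9 were called higher and 7 lower in shScamp1 (25.4%, against 14.0% of all tested genes, which include non-coding ones). When protein-coding genes alone were fitted, 19 of the 63 (30.2%) were called against 22.8% of all 11529. The fit without shScamp1 replicate 2 called 24 of the 63, and 27.8% of all tested genes. Among the 56 tested genes that are not members, 9 were called higher and 6 lower, with a median log2 fold change of 0.06. The called genes were spread over receptors, modifying enzymes, nuclear factors and targets, and TLE2, GATA3 and ID1 had log2 fold changes beyond 1 in size (-1.59, 1.03 and -1.01). Without shScamp1 replicate 2 these came to -1.53, 0.99 and -0.75, so that TLE2 alone stayed beyond 1. With a pseudocount of 1 FPKM they came to -0.78, 0.50 and -0.996, so the size depends on the pseudocount. TLE2 held 20 to 30 reads per shScamp1 library, at a mean of 0.409 FPKM. TLE2 and GATA3 averaged under 1 FPKM over all libraries and fell out under a filter at that level.

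**Figure D5:**
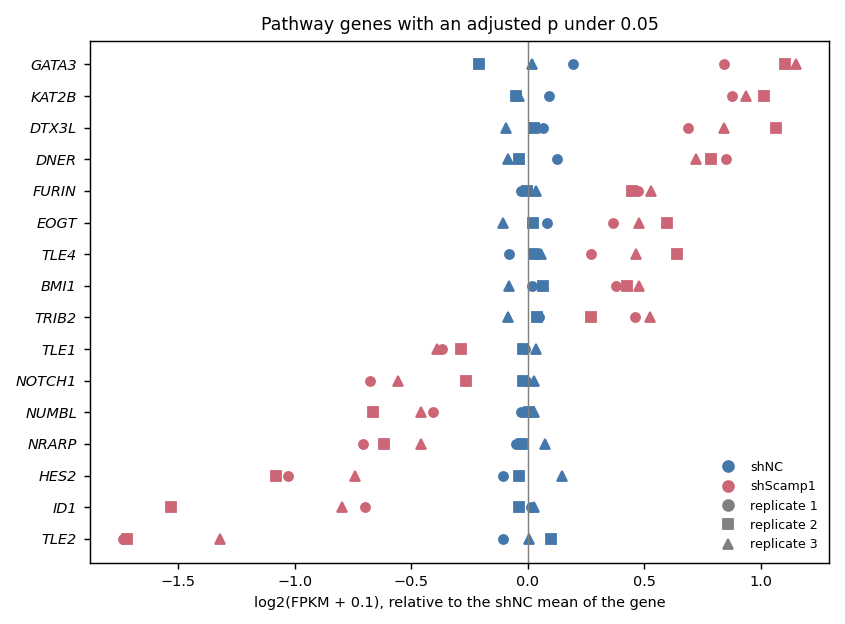
Log2(FPKM + 0.1) of the 16 called pathway genes in each library, relative to the shNC mean of the gene (blue shNC, red shScamp1, symbol shapes for replicates 1 to 3). TLE2, ID1 and HES2 lie farthest to the left and GATA3, KAT2B and DTX3L farthest to the right, with the knockdown libraries apart from the controls in each of these.

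Few ligand-side genes were called. Of the canonical ligands 0 of 2 tested were called by limma, against 14.0% of all tested genes, and JAG2 alone had an unadjusted p under 0.05. Among non-canonical ligands, DNER, a transmembrane protein with Delta-like EGF repeats, rose from 1.04 ± 0.0881 to 1.86 ± 0.0886 FPKM (SD, n = 3; log2 fold change 0.78 ± 0.12 SE, limma adjusted p = 0.0107). The most abundant of that list, EGFL7, a secreted EGF-like protein, was at 3.54 ± 0.109 and 2.79 ± 0.352 FPKM (SD, n = 3, limma adjusted p = 0.0883). For ligand endocytosis, 0 of 3 tested genes were called, and 0 had an unadjusted p under 0.05. Its most abundant gene, MIB2, a ubiquitin ligase for Notch ligands, had a log2 fold change of -0.15 (limma adjusted p = 0.230).

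Receptor-modifying and receptor-cleaving genes were mostly not called, with 1 of 6 and 1 of 8 past the test, against 14.0% of all tested genes. EOGT, which adds GlcNAc to EGF repeats, rose from 1.60 ± 0.112 to 2.27 ± 0.193 FPKM (SD, n = 3; log2 fold change 0.48, limma adjusted p = 0.0385). FURIN, the convertase that cuts the Notch precursor during its passage to the cell surface, read 61.2, 62.3 and 64.0 FPKM in shNC and 86.8, 85.2 and 90.2 FPKM in shScamp1. All knockdown libraries lay above all controls, with a log2 fold change of 0.48 ± 0.06 (SE, limma adjusted p = 0.00511). The ADAM10 protease, which makes the ligand-dependent cut, was at 30.0 ± 1.44 and 32.8 ± 1.81 FPKM (SD, n = 3, limma adjusted p = 0.274). PSENEN, a short subunit gene of γ-secretase, had 6.39, 6.02 and 7.30 FPKM in shNC and 7.53, 2.18 and 7.48 FPKM in shScamp1, so that replicate 2 alone was low.

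Among the 10 tested genes of receptor turnover, DTX3L rose and NUMBL fell. DTX3L, a Deltex-family ubiquitin ligase that is best known as the partner of PARP9, read 12.8, 12.5 and 11.5 FPKM in shNC and 19.8, 25.7 and 22.0 FPKM in shScamp1. The knockdown libraries all lay above the controls (log2 fold change 0.86 ± 0.11 SE, limma adjusted p = 0.00514). NUMBL, a relative of the Notch antagonist NUMB, fell from 9.46 ± 0.190 to 6.63 ± 0.620 FPKM (SD, n = 3; log2 fold change -0.51, limma adjusted p = 0.0137). These 2 of 10 (20%) were the genes called, against 14.0% of all tested genes and 22.8% in the fit of protein-coding genes alone. In 9 of the 10 genes the groups did not overlap, against 41.4% of all tested genes, which include non-coding ones. The other 8 genes were not called.

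In the nucleus, the core of the Notch complex was not called and 1 of 7 genes (14.3%) was, near the 14.0% of all tested genes. RBPJ, the DNA-binding partner of the Notch intracellular domain, was at 4.78 ± 0.431 FPKM in shNC and 5.48 ± 0.703 FPKM in shScamp1 (SD, n = 3, limma adjusted p = 0.321). SNW1, the most abundant of the list and a splicing factor and coregulator, was at 27.0 ± 0.140 and 27.0 ± 0.285 FPKM (SD, n = 3, limma adjusted p = 0.986). KAT2B, an acetyltransferase recruited as a coactivator, read 2.09, 1.89 and 1.91 FPKM in shNC and 3.68, 4.06 and 3.85 FPKM in shScamp1. It rose in every knockdown library (log2 fold change 0.94 ± 0.09 SE, limma adjusted p = 0.00171).

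Of 10 co-repressor genes, 3 were called, against 14.0% of all tested genes, and all 3 are of the Groucho family that HES proteins recruit. TLE2 read 1.31, 1.53 and 1.43 FPKM in shNC and 0.356, 0.362 and 0.508 FPKM in shScamp1, a log2 fold change of -1.59 ± 0.21 (SE, limma adjusted p = 0.00603). TLE1 fell from 14.4 ± 0.299 to 11.3 ± 0.435 FPKM (SD, n = 3; log2 fold change -0.35, limma adjusted p = 0.0160). TLE4 rose from 4.09 ± 0.210 to 5.68 ± 0.737 FPKM (SD, n = 3; log2 fold change 0.46, limma adjusted p = 0.0425). Genes of 1 family were thus called in opposite directions, and none of the 3 changed sign under any alternative run. HDAC1, a histone deacetylase and the most abundant of the list, was at 65.0 ± 1.90 and 53.6 ± 8.99 FPKM (SD, n = 3, limma adjusted p = 0.190).

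Of the HES and HEY genes 5 were tested, and 1 (20%), HES2, was called, against 14.0% of all tested genes. HES2 read 1.53, 1.61 and 1.84 FPKM in shNC and 0.760, 0.730 and 0.948 FPKM in shScamp1 (log2 fold change -0.95 ± 0.16 SE, limma adjusted p = 0.0137). HES4, the most abundant of them, read 57.7, 61.9 and 65.3 FPKM in shNC and 66.4, 32.0 and 62.4 FPKM in shScamp1. It is a short gene of 1118 bases, only replicate 2 was low, and it was not called (limma adjusted p = 0.546). NRARP, a Notch target that feeds back by destabilising the receptor complex, read 27.2, 27.7 and 29.7 FPKM in shNC and 17.2, 18.3 and 20.5 FPKM in shScamp1. The groups did not overlap, and its log2 fold change was -0.59 ± 0.09 (SE, limma adjusted p = 0.00797).

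Other common targets were called in 5 of 8 cases, with 3 higher and 2 lower, against 14.0% of all tested genes. That background includes non-coding genes, and in the fit of protein-coding genes alone 22.8% of all genes were called. Of these 5, NRARP alone kept its call in all 6 fits that left out 1 library. GATA3, a transcription factor, rose from 0.505 ± 0.0842 to 1.13 ± 0.138 FPKM (SD, n = 3; log2 fold change 1.03, limma adjusted p = 0.0275). ID1, an inhibitor of basic helix-loop-helix factors that also answers to BMP signalling, read 109, 105 and 110 FPKM in shNC and 66.4, 37.2 and 61.9 FPKM in shScamp1 (log2 fold change -1.01 ± 0.22 SE, limma adjusted p = 0.0299). BMI1, a Polycomb protein, rose with a log2 fold change of 0.43 (limma adjusted p = 0.0115), and TRIB2, a pseudokinase, with 0.42 (limma adjusted p = 0.0303). CDKN1A, a cell-cycle inhibitor, was at 6.24 ± 0.601 and 6.45 ± 0.746 FPKM (SD, n = 3, limma adjusted p = 0.819).

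Calls for FURIN, DTX3L, KAT2B, TLE2 and NRARP held in all 6 fits that left out 1 library, with limma adjusted p-values of at most 0.0428, 0.0333, 0.0167, 0.0458 and 0.0465. The others did not hold throughout. DNER passed in 4 of the 6 and reached an adjusted p of 0.0569 without shNC replicate 2 and 0.0514 without shNC replicate 3. HES2 reached 0.0728 and NUMBL 0.0711, and each was lost without any one of the shNC libraries. BMI1 reached 0.0599 and was lost without shNC replicate 1 or 3 or shScamp1 replicate 3. GATA3 (up to 0.107), ID1 (0.112), TLE1 (0.0830) and TLE4 (0.153) were lost without any shNC library or shScamp1 replicate 3. EOGT (0.139) and TRIB2 (0.122) were kept only without shScamp1 replicate 2.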

How the data were processed

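RNA from 3 shNC and 3 shScamp1 libraries of NCI-N87 cells was sequenced. The authors deposited FPKM per gene and library for 58735 genes with gene length and coordinates, which equalled GENCODE 29. The submitters' processing notes name HISAT2 2.0.5, featureCounts 1.5.0-p3, DESeq2 1.20.0 and the build hg38 without roles. FPKM times gene length was a whole multiple of 1 step per library (within 0.01 reads, for values up to 10000 reads), which gave the reads on each gene.

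The design foresaw a log-scale test: limma 3.58.1 in R 4.3.3 (lmFit, eBayes with trend) on log2(FPKM + 0.1), which understates fold changes of low genes, where a gene averaged 0.5 FPKM or more over the 6 libraries, with Benjamini-Hochberg adjustment. It was tested on simulated reads with larger fold changes than those of the members and no outlying library or trend with gene length. That simulation therefore does not bear on calls such as that of NOTCH1. Shares were compared by exact permutation tests in scipy 1.17.1. Read ratios of untested genes have exact intervals that cover counting error only. Promoters came from RefSeq (GRCh38.p14). Tables were made with pandas 2.3.3 in Python 3.11.15.

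The members and lists were chosen with earlier results of these data known. Genes named are the members, SCAMP1, called pathway genes, the most abundant gene of each list and the 3 genes most like NOTCH1. NOTCH4, DLL3, ADAM10, PSENEN, RBPJ and CDKN1A were named after their values were seen. Alternatives covered the pseudocount, filter, scaling, trend, biotype, voom, the replicate block and leaving out each library. Scaling by non-mitochondrial reads, which also drops the scaling held in the deposited FPKM, and removal of the trend with gene length were added after seeing the data. Cells with a further shRNA against SCAMP1 were not analysed here.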

Additional observations from a re-analysis of the deposited data

How the results depend on the processing

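SCAMP1 stayed lower and past the threshold in all 18 alternatives, with a log2 fold change of -2.90 to -2.65 without single libraries and -2.86 to -2.29 otherwise. The count of members called was 1, and it was 0 without a filter on low values, without a mean-variance trend and with the replicate block. It was 2 with non-mitochondrial scaling, with the trend with gene length removed and at an unadjusted p under 0.05, and 0 to 3 without single libraries. The count of pathway genes called was 16, and it was 10 without a filter, 7 with the replicate block, 26 at an unadjusted p, and 5 to 24 without single libraries. Of all tested genes 14.0% were called, and it was 4.81% without a filter, 12.0% without a mean-variance trend and 6.16% with the replicate block. It was 16.0% with non-mitochondrial scaling, 18.4% with the trend with gene length removed and 30.7% at an unadjusted p. Without single libraries it ran from 5.19% to 27.8%. NOTCH3 turned to 0.024 without shNC replicate 3 and 0.048 without shScamp1 replicate 1, and ran from -0.049 to 0.048 over single omissions. NOTCH2 turned to 0.0028 without shScamp1 replicate 1 and ran from -0.32 to 0.0028. The cause was not tested. Of 394 values of 22 single genes under alternatives, 322 kept direction and side of the threshold, 65 lost the call, 4 gained one and 3 turned direction. Over all tested genes 2177 were called, against 958 with the replicate block and 808 to 858 without an shNC library. The count was 1814 without shScamp1 replicate 1, 4330 without replicate 2 and 1030 without replicate 3 of that group. Deviations of libraries with the same replicate number had correlations of -0.0351, 0.0325 and 0.0668, and other pairs -0.0841 to 0.0537. With 3 libraries per group these values cannot decide whether the numbers pair libraries. Depth limits HEY1, DLL1 and DLL4, which had 12 reads or fewer per library.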
